A study of Mus musculus with 2 samples.

Results

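The genes described here build the MHC class I antigen presentation route upstream of the class I molecule itself. They are the immunoproteasome subunits Psmb8, Psmb9 and Psmb10, the peptide transporter subunits Tap1 and Tap2, the peptide-trimming aminopeptidase Erap1, the loading factor tapasin (Tapbp) and its relative Tapbpl, and the chaperones Calr and Pdia3. Members were chosen by gene symbol, and all 10 were found among the 20938 genes of the deposited tables. RNA-seq was carried out on Treg cells from the spleen, taken 7 days after BALB/c islets had been placed under the kidney capsule of streptozotocin-treated recipients. There was 1 library from littermate controls, labelled wild type and given as Mettl14f/f in the methods, and 1 library from Foxp3-Mettl14f/+ cKO mice, in which Cre driven by Foxp3 removes a single floxed Mettl14 copy in Foxp3-expressing cells. These libraries are called Ctrl and cKO. The labels call the genotype of the latter a knockdown of Foxp3, and the genotype in the methods is used here. All recipients carried an islet graft and had received no tolerance-inducing antibodies. The cells were enriched on magnetic columns for CD4+CD25+ cells, and the number of animals behind each library and their age were not given in the sources used here.

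Class I molecules are filled with peptides that the proteasome has cut from proteins of the cytosol. Psmb8, Psmb9 and Psmb10 replace the catalytic subunits Psmb5, Psmb6 and Psmb7 of the constitutive proteasome, which makes the immunoproteasome of lymphocytes and of cells exposed to interferon-gamma. The Tap1 and Tap2 heterodimer carries peptides into the endoplasmic reticulum (ER), Erap1 shortens them, and tapasin, calreticulin (Calr) and the thiol oxidoreductase Pdia3 hold the empty class I molecule at the transporter until a peptide is bound. Tapbpl edits the bound peptide away from the transporter. This route operates in nearly all nucleated cells, Treg cells included.

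The genes lie at 7 places of the mouse genome (GRCm38, the assembly also called mm10, with GENCODE vM21 genes). A block of 4 adjacent genes is found on chromosome 17, inside the MHC class II region: Psmb9 from 34181987 to 34187764 on the minus strand, Tap1 from 34187553 to 34197225, Psmb8 from 34197721 to 34201454 and Tap2 from 34203527 to 34216321, the last 3 on the plus strand. Tapbp is on the same chromosome from 33915899 to 33929292. Tapbpl lies on chromosome 6 from 125223933 to 125231860, Erap1 on chromosome 13 from 74639568 to 74693201 and Pdia3 on chromosome 2 from 121413775 to 121438687. Calr and Psmb10 are both on chromosome 8, from 84841850 to 84846934 and from 105935735 to 105938444. Exons of 7 members share bases with exons of another gene. The largest shares were with genes that are not in the tables and lie on the other strand, at 24.9% of the Tapbp exon bases (Gm19412), 14.7% for Psmb8 (Gm20496) and 14.1% for Tap2 (Gm15821, with a further 4.36% for Gm20496). Of the genes in the tables, overlaps were found for 212 bases of Tap1 and Psmb9, for 149 bases of Tapbp and Zbtb22 on the same strand, for 18 bases of Pdia3 and Catsper2, and for 834 bases of Erap1 (11.5% of its exon bases) and Cast on the other strand. Whether the counting used strand was not given in the sources used here, so reads of these stretches cannot be told apart.

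Promoter sequences are shown for 3 places of these genes, and a link between them and the values below was not tested. They come from RefSeq windows of GRCm38.p6 that run from 250 bases before to 50 bases after a start site. A window was found for 8 of the 10 genes, all but Tap2 and Tapbpl. The RefSeq start sites of Tap1 and Psmb9 are 226 bases apart and point away from each other, so the stretch between them lies upstream of both genes. It holds 1 GC box (GGGCGG on either strand), shown in capitals with the bases around it, 30 in all, on the plus strand (chr17:34187368-34187397). GENCODE also annotates this stretch as the 5′ UTR of a longer Psmb9 transcript. The GC box is held by 35.7% of all 32851 windows and was added after the other motifs had been searched. For Psmb8, 30 bases around a gamma-activated site motif (TTCNNNGAA) are shown with the motif in capitals (chr17:34198087-34198116, plus strand). These too lie in a 5′ UTR that GENCODE annotates for a Psmb8 transcript with an earlier start. For Calr, the bases upstream of the start are shown on the minus strand (chr8:84846935-84847181), with the ER stress element in capitals, read on the other strand.
Tap1 and Psmb9: cagactgaggccCCGCCCcatcatcgcgca
Psmb8: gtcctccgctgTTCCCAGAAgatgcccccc
Calr: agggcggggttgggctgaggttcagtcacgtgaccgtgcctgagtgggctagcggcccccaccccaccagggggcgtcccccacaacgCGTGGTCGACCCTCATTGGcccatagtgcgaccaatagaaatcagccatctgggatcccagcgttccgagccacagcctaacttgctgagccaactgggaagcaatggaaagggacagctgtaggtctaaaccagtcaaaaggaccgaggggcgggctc

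The TTCNNNGAA motif was held by 8.30% of all windows and by 1 of the 8 member genes, Psmb8, where its first base was 97 bases before the start. This pattern is its own reverse complement, so any match to it is found on both strands. The ER stress element was held by 0.119% of all windows and by Calr alone among the members. The interferon response element was held by 3.44% of the windows and by Erap1. The kappaB motif was held by 0.155% of the windows and by 0 of the 8 genes. Each motif was searched on both strands. These are matches of letters and not binding sites, and a motif without a match is only absent from this window.

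The deposited value of a gene is its read count divided by a size factor per library, and dividing by the value of 1 read recovered whole reads for 100% of the values within 0.01. The recovered reads summed to 20239325 in Ctrl and 18327535 in cKO. Levels below are deposited values. A change is the log2 ratio of cKO to Ctrl after 1 was added to each level, and its bracketed range is an exact 95% interval of the read ratio. These intervals cover counting error only, and with 1 library per genotype no difference has a replicate check. Mettl14, the targeted gene, had 948 reads in Ctrl and 652 in cKO, a change of -0.31 (-0.45 to -0.16). Foxp3, which defines the Treg label, had 1547 and 1361 reads and a change of 0.05 (-0.06 to 0.15). Genes of other cell types were read in both libraries and moved between them. Granulocyte markers had the largest summed level of the cell type lists, 262031 in Ctrl and 355622 in cKO. Of these 13 markers, 2 were at least 1.5-fold higher and 3 lower. All 13 B cell markers found were at least 1.5-fold higher in cKO (summed level 24826 and 92765), as were all 16 macrophage markers (27046 and 60335), of which Marco alone was at 0 reads, in the control library. Of the 15 T cell core genes found, 0 passed 1.5-fold upward and 3 downward. Of all genes whose mean level reached 1, 17.2% passed it upward and 24.2% downward. The summed level of the T cell core genes was 57944 and 45525, a log2 ratio of -0.35. The Mettl14 change of -0.31 was of similar size, so Mettl14 was not lower relative to these T cell genes. It was lower than the Foxp3 change of 0.05 and the median of all genes tested, -0.04. The summed level of 13 Treg markers, which singly went both ways, had a log2 ratio of 0.16. In bulk RNA, fewer cells of a type and less RNA per cell cannot be told apart.

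None of the 10 genes passed 1.5-fold in either direction. Among the 16659 genes whose mean level reached 1, 17.2% had a change past 1.5-fold upward in cKO and 24.2% one past it downward, 41.4% in all. The members are abundant genes, the lowest having a mean level of 770, and among the 5838 genes at or above that level 15.3% were past 1.5-fold. The member changes ran from -0.40 for Calr to 0.30 for Tap1, with 5 above 0 and 5 below 0. Of all genes tested 46.7% had a change above 0, and of the genes of at least the same level 55.5%. Their median was 0.04, against -0.04 for all genes tested and 0.05 for the genes of at least the same level. The interval left out 0 for 7 members, as it did for 66.4% of all genes tested, a share that includes genes with few reads. For Tap2, 1 of the 7, the lower bound was 0.0006. With library totals in place of the size factors its interval held 0 (-0.09 to 0.07). The 10 genes together had 49451 reads in Ctrl and 39708 in cKO, and their summed level had a log2 ratio of -0.08 (-0.10 to -0.06). Calr and Pdia3 weigh most in this sum, with levels of 15861 and 10157 out of 47838 in Ctrl. They also had the lowest changes of the 10 genes, so the sum does not describe the other members.

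**Figure D1:**
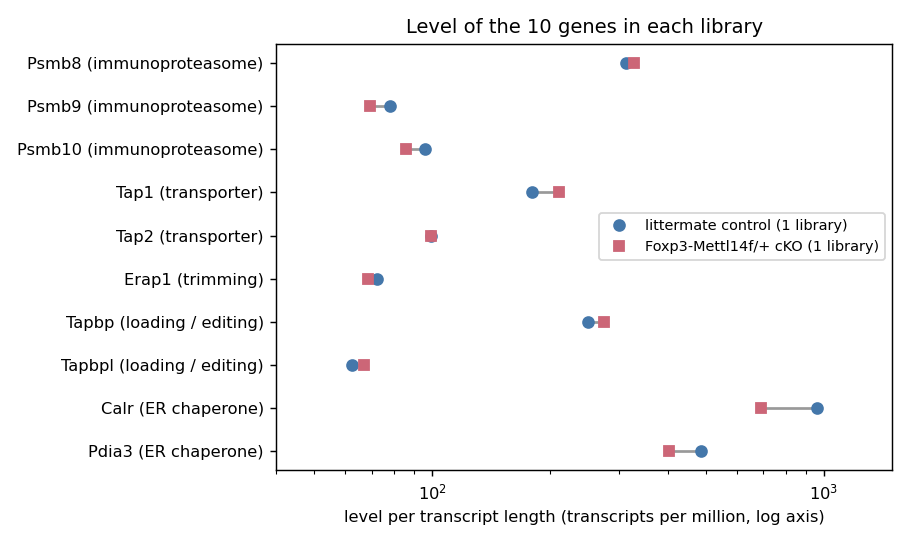
Level of each gene per transcript length (TPM, log axis) in the control library (circles) and the cKO library (squares), 1 library each. The levels span 62.5 for Tapbpl to 962 for Calr in the control library, and the order of the genes is the same in both.

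Levels of different genes were compared as TPM, a transcript abundance that divides reads by transcript length. On this scale the members differed from each other far more than the libraries did. Calr stood at 962 TPM in Ctrl and 692 in cKO, places 119 and 155 among the genes with a known length. Pdia3 followed with 486 and 403, then Psmb8 with 312 and 328, Tapbp with 250 and 275, and Tap1 with 180 and 211. The partner of Tap1 in the transporter, Tap2, stood lower at 99.1 and 99.5. Psmb10 had 95.8 and 85.7 TPM, Psmb9 77.9 and 69.2, Erap1 72.2 and 68.5, and Tapbpl 62.5 and 67.1. The order was the same in both libraries, but some neighbours in it did not differ beyond counting error. In the control library these were Tap2 over Psmb10 (ratio 1.03, 95% interval 0.962 to 1.11) and Psmb9 over Erap1 (1.08, 0.998 to 1.16). In the cKO library they were Psmb9 over Erap1 (1.01, 0.927 to 1.10) and Erap1 over Tapbpl (1.02, 0.952 to 1.10).

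The immunoproteasome subunits had changes close to 0. Psmb8 had a level of 3839 in Ctrl and 4252 in cKO, from 3968 and 3739 reads, and a change of 0.15 (0.08 to 0.21). The level of Psmb9 was 795 and 745, from 822 and 655 reads, and its change was -0.09 (-0.24 to 0.06). Psmb10 had a level of 948 and 894, from 980 and 786 reads, and a change of -0.08 (-0.22 to 0.05). For Psmb9 and Psmb10 the side of 0 depended on the scaling. With library totals they were at -0.18 (-0.33 to -0.03) and -0.17 (-0.31 to -0.04), and under T cell core scaling, which sets the summed T cell core genes equal between the libraries, at 0.25 (0.10 to 0.40) and 0.26 (0.13 to 0.40).

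The constitutive subunits that they replace had changes further below 0, with a median of -0.27 that was 0.08 under T cell core scaling. Psmb5 was at -0.27 (-0.43 to -0.12), Psmb6 at -0.24 (-0.36 to -0.13) and Psmb7 at -0.47 (-0.59 to -0.35). A ratio of 2 genes within a library does not depend on how the libraries are scaled, so each immunosubunit was set against its own counterpart. Reads of Psmb8 were 4.87 times those of Psmb5 in Ctrl and 6.51 times in cKO, so that the ratio was 1.34 times as high (exact 95% interval 1.19 to 1.51). The ratio of Psmb10 to Psmb7 went from 0.673 to 0.878 and was 1.30 times as high (1.15 to 1.48). For Psmb9 to Psmb6 the ratio was 0.560 and 0.620, 1.11 times as high with an interval that held 1 (0.971 to 1.26). With the 3 subunits of each kind summed, a pair added after the single pairs were seen, the ratio was 1.33 times as high in the cKO library (1.25 to 1.42). Per transcript length that summed ratio was 0.948 in Ctrl and 1.24 in cKO. The B cell and macrophage markers given above were higher in the same library, and their part in these ratios was not tested.

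**Figure D2:**
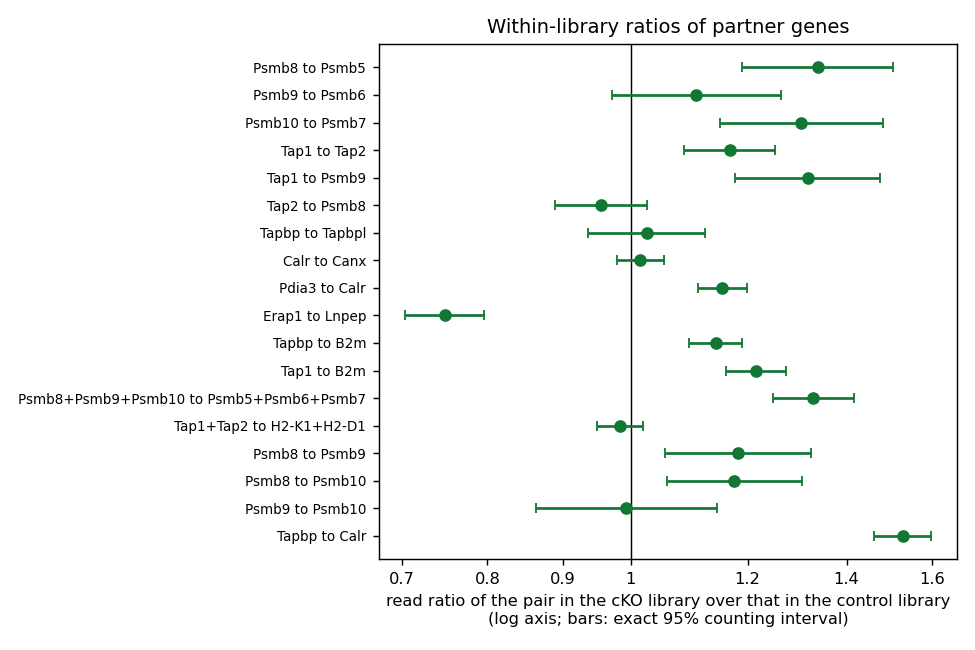
Read ratio of each gene pair in the cKO library divided by the same ratio in the control library (log axis), with exact 95% counting intervals; plus signs join genes that were summed. The ratios of Psmb8 to Psmb5 and of Psmb10 to Psmb7 lie above 1, the ratio of Calr to Canx lies at 1, and Erap1 to Lnpep lies below 1.

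The transporter genes Tap1 and Tap2 had unequal changes. Tap1 had a level of 4010 in Ctrl and 4948 in cKO, from 4145 and 4351 reads. Its change of 0.30 (0.24 to 0.36), or 1.23-fold, was the highest of the 10 genes. Tap2 had a level of 2576 and 2725, from 2663 and 2396 reads, and a change of 0.08 (0.0006 to 0.16). Reads of Tap1 were 1.56 times those of Tap2 in Ctrl and 1.82 times in cKO, a ratio 1.17 times as high (1.09 to 1.25). Tap1 and Psmb9, which share the stretch between their starts, also differed, with 5.04 and 6.64 Tap1 reads for each Psmb9 read, a ratio 1.32 times as high in the cKO library (1.18 to 1.47). The 212 exon bases shared by these genes enter that ratio. For the other neighbours in the block, Tap2 and Psmb8, the ratio was 0.671 and 0.641, and its interval held 1 (0.955, 0.889 to 1.03).

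The block of Psmb9, Tap1, Psmb8 and Tap2 is flanked on both sides by class II genes, and these were past 1.5-fold in the cKO library whereas the block was not. Of the 8 other genes of the tables within 100 kb of Tap1, 7 were at least 1.5-fold higher, against 17.2% of all genes tested. The changes of the 8 ran from 0.38 to 2.25 with a median of 1.56. H2-DMb2, which encodes a chain of the class II peptide exchange factor, lies on the proximal side. It had 591 reads in Ctrl and 2398 in cKO, a change of 2.25 (2.12 to 2.39). H2-Ob, the nearest class II gene on the Tap2 side, had 978 and 2364 reads and a change of 1.51 (1.40 to 1.62). The gene under 1.5-fold was Brd2, a chromatin reader, at 0.38 (0.33 to 0.43). The 4 genes of the block ranged from -0.09 to 0.30, below each of these 8 neighbours. The class II genes are expressed in B cells and macrophages, whose markers moved with them. The part of those cells in these values was not tested.

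**Figure D3:**
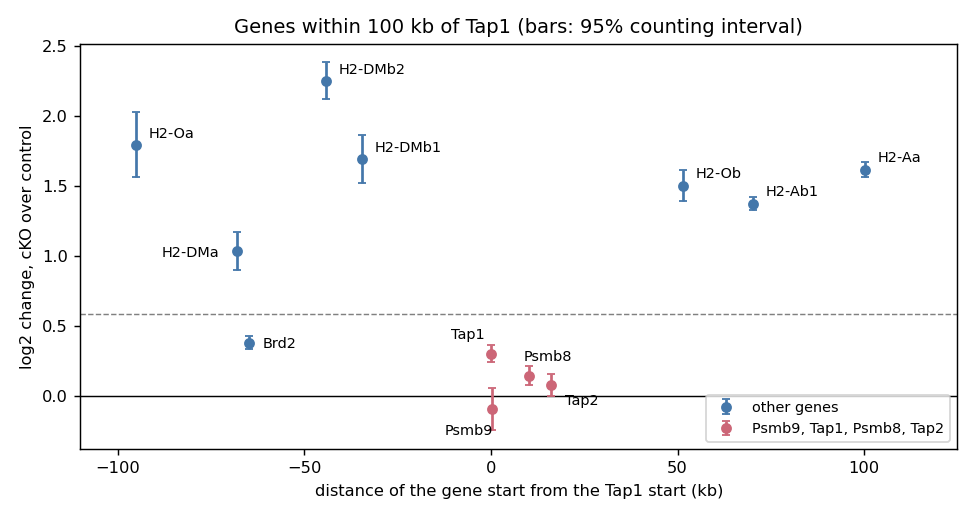
Change of each gene (log2, cKO over control) against the distance of its start from the Tap1 start in kb, with 95% counting intervals and the 1.5-fold line (dashed). The 4 genes of the block lie between -0.09 and 0.30, and 7 of the 8 other genes lie above the 1.5-fold line.

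Trimming and loading factors spanned values from near 0 to slightly above. Erap1 had a level of 3078 in Ctrl and 3076 in cKO, from 3182 and 2705 reads, the smallest change of the 10 genes at -0.001 (-0.08 to 0.07). Lnpep, a related aminopeptidase that trims peptides in endosomes, was at 0.42 (0.37 to 0.47), so that the ratio of Erap1 to Lnpep was 0.749 times as high in the cKO library (0.704 to 0.796). Tapbp had a level of 5464 and 6333, from 5648 and 5569 reads, and a change of 0.21 (0.16 to 0.27). Its relative Tapbpl had a level of 1111 and 1255, from 1148 and 1104 reads, and a change of 0.18 (0.06 to 0.30). Both were a little higher in the cKO library on the deposited scale. Their ratio was 1.03 times that of the control library with an interval holding 1 (0.936 to 1.12).

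The ER chaperones had the lowest changes, although Pdia3 was at 0.16 under T cell core scaling. Calr had a level of 15861 in Ctrl and 12037 in cKO, from 16396 and 10585 reads, and a change of -0.40 (-0.43 to -0.36), or 0.759-fold. Pdia3 had a level of 10157 and 8890, from 10499 and 7818 reads, and a change of -0.19 (-0.23 to -0.15). The ratio of Pdia3 to Calr was 1.15 times as high in the cKO library (1.11 to 1.20). Canx, the membrane-bound relative of Calr that binds class I chains before tapasin does, was at -0.42 (-0.46 to -0.38). There were 1.20 Calr reads for each Canx read in Ctrl and 1.22 in cKO, and the ratio of these, 1.01, did not differ from 1 beyond counting error (0.978 to 1.05). Against Calr, tapasin reads went from 0.344 to 0.526, a ratio 1.53 times as high (1.46 to 1.60), in a pair added later. Of the 13 erythroid markers, 8 were at least 1.5-fold lower in cKO (median -1.14), against 24.2% of all genes tested. Of the 13 granulocyte markers, 3 were (Mpo at -1.03, Prtn3 at -1.17 and Ctsg at -1.38). The granulocyte list went mostly the other way, with 9 markers above 0, against 46.7% of all genes tested, and a median of 0.44. The part of these cells in the values of Calr and Pdia3 was not tested.

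**Figure D4:**
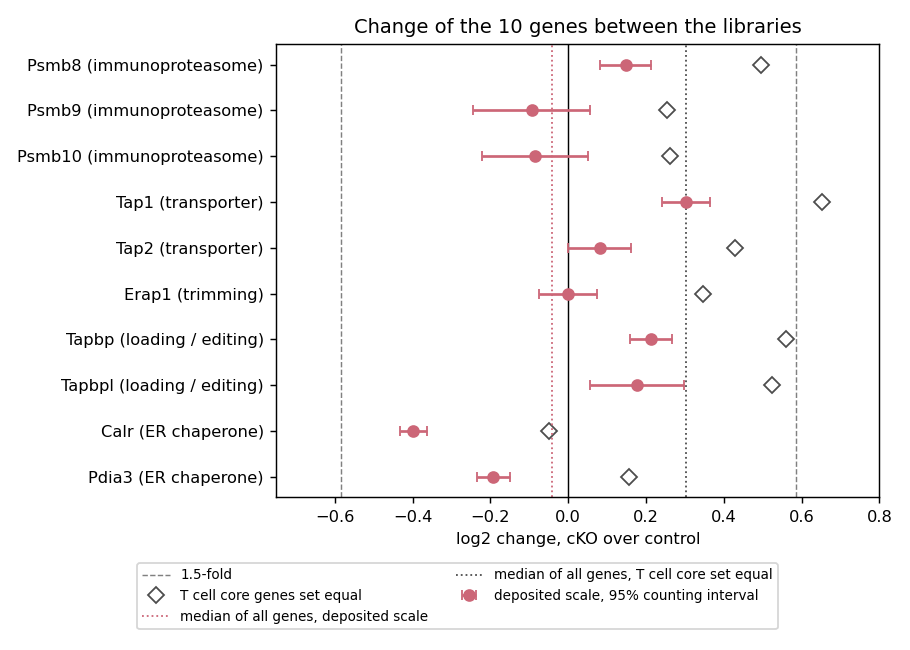
Change of each gene (log2, cKO over control) on the deposited scale with its 95% counting interval (filled circles) and under T cell core scaling (open diamonds); dashed lines mark 1.5-fold and dotted lines the median of all genes under each scaling. All filled circles lie inside 1.5-fold, from -0.40 for Calr to 0.30 for Tap1, and only the diamond of Tap1, at 0.65, lies outside it.

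How these small changes are signed depends on the scaling. Setting the summed T cell core genes equal between the libraries moved the median of all genes by 0.35, to 0.30. With that scaling Calr was at -0.05 and the other 9 genes were above 0, and Psmb9, Psmb10, Erap1 and Pdia3 had the other sign. Relative to the median of all genes, 6 of the 10 members were above it on the deposited scale. With library totals in place of the size factors, Tap2 was at -0.01 instead of 0.08. The intervals of Tapbpl, at 0.09 (-0.03 to 0.21), and Psmb8, at 0.06 (-0.007 to 0.12), then held 0. That of Erap1, at -0.09 (-0.17 to -0.02), lay below 0. An exact binomial test (two-sided) of recovered reads, with TMM-scaled totals and Benjamini-Hochberg adjustment over 14863 genes, compares these 2 libraries and not the genotypes. At an adjusted p under 0.1 it called 6 members, with Tap1, Tapbp, Tapbpl and Psmb8 higher and Calr and Pdia3 lower, where it called 71.3% of all genes. With the 1.5-fold threshold added it called 0 members, against 14.1% of all genes as higher and 18% as lower. Tap2, Erap1, Psmb9 and Psmb10 were not called by this test.

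The rest of the proteasome was read from lists of subunits. Of 11 other 20S core subunits, 0 passed 1.5-fold and 10 had a change below 0, with a median of -0.30. Among all genes tested, 41.4% passed 1.5-fold in either direction and 46.7% had a change above 0. Psma1 had the lowest change, -0.49 from 1498 and 904 reads, and Psmb2 the highest, 0.01. Of the 17 subunits of the 19S cap, which unfolds ubiquitin-tagged proteins, 2 were at least 1.5-fold lower and 16 were below 0, with a median of -0.33. The 2 were Psmd7 at -0.62 and Psmc5 at -0.62, and both were at -0.27 under T cell core scaling. The 2 of 17 compare with 24.2% of all genes tested. With T cell core scaling the medians of the 20S and 19S lists were 0.05 and 0.02, where the median of all genes was 0.30. Among 9 activators and assembly factors the median was -0.20, or 0.15 under that scaling. Of the 9, 2 were at least 1.5-fold lower on the deposited scale, against 24.2% of all genes tested. These were Psmg1 at -0.84 and Psmg2 at -0.74, which pair up to assemble the core ring. Under T cell core scaling they were at -0.49 and -0.39. The erythroid markers (median -1.14) and the T cell core genes (median -0.32) were lower in the same library, and their part in the values of the proteasome lists was not tested. The activator subunits Psme1 and Psme2, which widen the gate of the core and are induced together with the immunosubunits, were at -0.02 (-0.08 to 0.05) and -0.12 (-0.21 to -0.03).

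Downstream of loading, 8 of the 9 genes for class I heavy chains and beta-2 microglobulin had a change above 0. Of all genes tested, 46.7% did. The median of the 9 was 0.30 (0.65 under T cell core scaling), and 2 were at least 1.5-fold higher, near the 17.2% of all genes tested. The classical chains H2-K1 and H2-D1 were at 0.20 (0.18 to 0.22) and 0.30 (0.27 to 0.32), and B2m, the invariant light chain, at 0.02 (-0.005 to 0.05). The 2 past 1.5-fold were H2-Q7 at 0.95 and H2-M3 at 0.67, while H2-T22 was at -0.32. Reads of near-identical class I genes may be split between them, so single values of this family are uncertain. Tap1 and Tap2 reads together were 0.129 and 0.126 of H2-K1 and H2-D1 reads together, a pair added later, and the ratio of these, 0.983, did not differ from 1 beyond counting error (0.949 to 1.02). Against B2m, the ratio was 1.22 times as high for Tap1 (1.16 to 1.27) and 1.14 times as high for Tapbp (1.09 to 1.19).

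**Figure D5:**
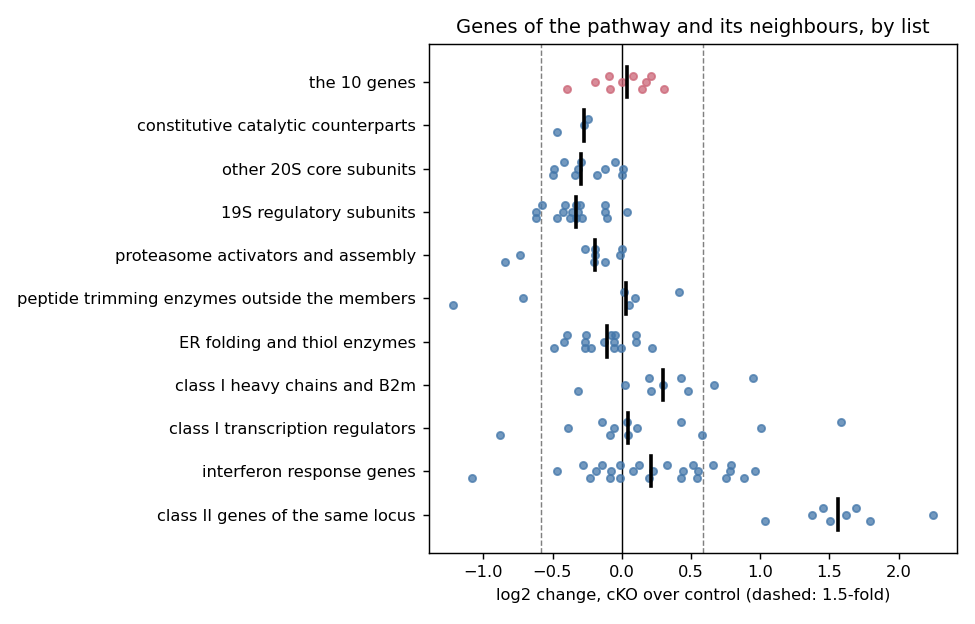
Change of each gene (log2, cKO over control) in lists of the class I route and its surroundings, 1 point per gene whose mean level reached 1; black bars mark the list median and dashed lines 1.5-fold. The 10 genes center on 0.04, the proteasome lists lie to the left of them and the class II genes to the right at a median of 1.56.

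Genes that drive transcription of the class I route were mixed. Nlrc5, the class I transactivator, had 6135 reads in Ctrl and 5369 in cKO and a change of 0.04 (-0.01 to 0.09). Irf1, an interferon-induced activator of these promoters, was at 0.05 (-0.02 to 0.12). Ciita, the class II transactivator, was past 1.5-fold at 1.59 from 1455 and 3718 reads, as was Irf8 at 1.01. Both are expressed in B cells and myeloid cells. B cell and macrophage markers were higher in the same library (median 2.42 for B cells and 2.28 for macrophages). The part of those cells in these values was not tested. Rfx5, a subunit of the factor that binds class I and class II promoters, was at -0.88 from 792 and 366 reads, past 1.5-fold on the deposited scale, and at -0.53, inside it, under T cell core scaling. The partner subunits Rfxap and Rfxank were at -0.38 and 0.43. Irf2, which binds the same motif as Irf1, was at 0.58 (0.51 to 0.65), just under 1.5-fold. Nfya, Nfyb and Nfyc, which encode the CCAAT-binding factor, were at -0.14, 0.11 and -0.05.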

How the data were processed

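RNA-seq values of 2 libraries of splenic Treg cells were used. As deposited, each value is a signal: a whole read count that the authors divided by a size factor, so that 1 read is worth 0.967 in Ctrl and 1.14 in cKO. The methods name TopHat and mm10, and the submitters' processing notes list bcl2fastq 2.0, STAR, StringTie and DESeq2; the counter, annotation and strand setting are not given in the sources used here. Changes used a pseudocount of 1, a minimum mean level of 1 and the 1.5-fold threshold of the methods. Intervals were exact (Clopper-Pearson for single genes, conditional odds ratio for 12 pairs and 7 pairs added after the data were seen). The members and lists were chosen with earlier results of these data known. Every member is named; of each list, its extremes, its most abundant gene and genes of stated roles, some of them chosen after their values were seen. Symbols were matched to GENCODE vM21 for 20516 of 20938 genes, and lengths came from the longest APPRIS principal transcript, or otherwise the longest coding one. Alternatives were pseudocounts, filters, 4 scalings (T cell core scaling sets the summed level of that list equal), a 2-fold threshold, the binomial test, and edgeR's exact test with assumed coefficients of variation of 0.2 and 0.4. The steps were tested on simulated data. Python 3.11.15, scipy 1.17.1, R 4.3.3 and edgeR 4.0.16 were used.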

Additional observations from a re-analysis of the deposited data

How the results depend on the processing

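No paired analysis was possible because there was only 1 library of each genotype. Pseudocounts of 0.1 and 5, other filters on low values and the median-of-ratios scaling left the 10 member changes, their median and the counts past 1.5-fold within their intervals or within 1.5 times the count. Under T cell core scaling 1 member (Tap1) was at least 1.5-fold higher instead of 0, the median of the members was 0.39 and their summed change 0.26, while the pathway lists together held 30 genes at least 1.5-fold higher and 2 lower instead of 18 and 8; the 18 stayed called, and the lower calls of Psmd7, Psmc5, Psmg1, Psmg2, Lap3 and Rfx5 were lost. The summed change was -0.11 with TMM and -0.17 with library totals, which moved 7 of the 10 member changes outside their intervals. Of all genes tested, 17.2% were at least 1.5-fold higher on the deposited scale and 24.2% lower. At a threshold of 2-fold the lists held 10 higher and 2 lower genes. With edgeR's exact test they held 9 and 1 at an assumed coefficient of 0.2, and 0 and 0 at 0.4, where 0 members were called at either. Shares of all genes at 2-fold, under T cell core scaling and with edgeR are not given here. The counts at those settings therefore cannot be set against all genes. Under T cell core scaling the median of all genes was itself 0.30. The pair ratios do not depend on scaling, and adding 0.5 reads left all 12 inside their intervals. With no replicates, a change of the size of those of Tap1 or Calr cannot be set against the spread between animals.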

Other observations

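Interferon response genes, many of which are induced together with the class I route, had a median change of 0.21 over 26 genes. Of these, 6 passed 1.5-fold upward in cKO, against 17.2% of all genes tested, which is near the share in the list, among them Rsad2 at 0.96 from 439 and 727 reads and Gbp5 at 0.89 from 508 and 799 reads, and Cxcl10 was at least 1.5-fold lower with 61 and 24 reads. Stat2 was at 0.45, while Irf9, its partner in the interferon-activated factor, was at -0.09. Under T cell core scaling the list had a median of 0.56, against 0.30 for all genes.

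Among other peptidases that cut or destroy class I peptides, 2 of 6 passed 1.5-fold, both downward, against 24.2% of all genes tested. Thop1, which degrades cytosolic peptides, was at least 1.5-fold lower with 640 and 233 reads and a change of -1.22 (-1.45 to -1.01), and Lap3, a leucine aminopeptidase, was at -0.71 from 992 and 515 reads, or -0.36 and inside 1.5-fold under T cell core scaling. Tpp2, Npepps and Blmh were at 0.02, 0.09 and 0.05. Of 16 ER folding enzymes 0 passed 1.5-fold, and their median was -0.11, or 0.24 under T cell core scaling. Txndc5, a disulphide isomerase abundant in secretory cells, had the lowest change at -0.49 from 9785 and 5917 reads, and Pdia4 the highest at 0.22. Hsp90b1, the most abundant, was at -0.13 from 27474 and 21361 reads, and Hspa5, the main ER chaperone of the stress response, at -0.01.

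Among the lists of other cell types, 6 of 11 CD8 T and NK cell markers were at least 1.5-fold higher (summed level 7284 and 13515), as were 2 of 10 dendritic cell markers (5154 and 5966). Of 13 granulocyte markers 2 were higher and 3 lower (262031 and 355622), and of 13 erythroid markers 1 was higher and 8 lower (36506 and 23204). Of 13 Treg markers 2 were higher and 2 lower (10629 and 11858). These counts compare with 17.2% of all genes tested as at least 1.5-fold higher and 24.2% as lower. No marker of these lists was at 0 reads in either library. The 1 erythroid marker counted as higher, Hbb-bs, was near 0 in Ctrl, with 3 reads against 2626 in cKO.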
